A study of Homo sapiens with 6 samples.

Results

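The genes described here are 40 genes of glycolysis and of the response to low oxygen, listed by name, in SKOV3 cells, an established human ovarian cancer cell line. Their expression was read on 6 single-colour Agilent arrays. The sample titles label 3 arrays VD and the other 3 vehicle, all at 72 h, and write the cell line as SKOV-1. The paper's methods name SKOV3 cells. They give the treatment as 1α,25(OH)2D3, the hormonally active form of vitamin D, at 100 nmol/L, and the vehicle as ethanol. The arrays are called D3-labelled and vehicle-labelled below. Both groups were grown in serum-containing medium in a standard humidified incubator, and no label gives a low oxygen treatment. The labels do not say whether replicates came from separate cultures, so p-values measure the spread between these arrays, which may be technical.

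The deposited scanner tables repeat the probe name where a gene name would stand. A probe was therefore given to a gene when its whole sequence matched a GENCODE 44 transcript of that gene in sense, and the brightest probe stood for the gene. Of the 40 genes, 38 had such a probe, among 19151 protein-coding genes with a probe on the array, and 37 were tested, among 15144 tested protein-coding genes. HK2 and ANGPTL4 were not matched to a probe. The probe of SLC2A3 was well above background on no array and was not tested. Signals are given as log2 relative to the 75th percentile of the same array, so that 0 is that percentile and a difference of 1 is a 2-fold difference.

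Glycolysis splits glucose into pyruvate and yields ATP without oxygen, and lactate dehydrogenase then turns pyruvate into lactate, which leaves the cell with protons. When oxygen is short, the prolyl hydroxylases that mark the HIF-α proteins for destruction slow down. HIF-1α and HIF-2α then accumulate, pair with ARNT and bind short DNA elements with the core ACGTG or GCGTG near genes for glucose uptake, glycolytic enzymes, pH control, blood vessel growth and mitochondrial turnover. HIF1A itself is regulated mainly at the level of its protein.

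Between 49.1% and 57.6% of all probes were above background, lowest on vehicle-labelled replicate 2 and highest on D3-labelled replicate 1. Of the 6 arrays, D3-labelled replicates 1 and 2 lay on slide 1 and the other 4 on slide 2. Of 9 markers listed for ovarian carcinoma epithelium, 8 had a probe, and all 8 of these were well above background on all 6 arrays. Among them MUC16 was lower on the D3-labelled arrays by 0.71 in log2 (limma, unadjusted p = 0.00792) and KRT19 by 0.74 (limma, unadjusted p = 0.0493). KRT8 and KRT7 had log2 fold changes of -0.24 and -0.29. ERBB2, KRT18, EPCAM and PAX8 went the other way, with 0.25, 0.13, 0.41 and 0.295. The part of these differences in the results below was not tested. The 4 leukocyte and 3 endothelial markers were above background on all 6 arrays as well. Of the 3 fibroblast markers, PDGFRB was above it on all 6 arrays, LUM on 1 D3-labelled array and DCN on 0. Of the 2 erythroid markers, HBA1 was above it on all 6 arrays and HBB on 0. This flag alone therefore did not separate cell types. CYP24A1, the 24-hydroxylase that inactivates 1α,25(OH)2D3 and is a classical target of the vitamin D receptor, had signals that did not follow the labels. Its signal was -5.10, 6.70 and -3.80 on D3-labelled replicates 1 to 3, and 6.90, -2.48 and 7.29 on vehicle-labelled replicates 1 to 3. Every direction below is therefore a direction between labels.

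Of the chosen probes, 21 lay in a 3′ UTR and 8 wholly in coding sequence. The probes of CA9 and ALDOA, which differed between the labels, and of HIF1A, whose groups overlapped, are shown because they state which part of each mRNA was read. Positions are those of the match to hg38. The CA9 probe crosses from exon 6 into exon 7 of 11 (chromosome 9, plus strand, 35677820 to 35679207, intron included). The ALDOA probe crosses from exon 9 into exon 10 of 10 (chromosome 16, plus strand, 30070003 to 30070149), and the HIF1A probe lies in exon 13 of 15 (chromosome 14, plus strand, 61744754 to 61744813). Capitals mark the bases read from the second of the joined exons.
CA9: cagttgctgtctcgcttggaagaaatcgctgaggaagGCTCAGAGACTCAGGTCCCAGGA
ALDOA: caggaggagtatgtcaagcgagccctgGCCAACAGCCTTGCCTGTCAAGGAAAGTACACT
HIF1A: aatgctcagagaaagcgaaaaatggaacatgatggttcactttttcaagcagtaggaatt

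The 250 bases before the transcription start are shown for CA9 and BNIP3, which had the largest differences between the labels, and for PGK1, a glycolytic enzyme gene. They come from RefSeq (GRCh38.p14) and are written on the gene's strand. Capitals mark ACGTG or GCGTG on either strand, overlaps included. The CA9 window (chromosome 9, plus strand, 35673678 to 35673927) held 1 ACGTG and 0 GCGTG. The BNIP3 window (chromosome 10, minus strand, 131981924 to 131982173) held 2 ACGTG, which lie on opposite strands and overlap, and 4 GCGTG. The PGK1 window (chromosome X, plus strand, 78103998 to 78104247) held 2 ACGTG and 1 GCGTG.
CA9: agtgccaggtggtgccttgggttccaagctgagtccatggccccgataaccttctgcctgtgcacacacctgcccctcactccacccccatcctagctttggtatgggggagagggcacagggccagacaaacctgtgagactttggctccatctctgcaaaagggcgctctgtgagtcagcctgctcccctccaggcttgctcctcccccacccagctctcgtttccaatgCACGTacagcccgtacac
BNIP3: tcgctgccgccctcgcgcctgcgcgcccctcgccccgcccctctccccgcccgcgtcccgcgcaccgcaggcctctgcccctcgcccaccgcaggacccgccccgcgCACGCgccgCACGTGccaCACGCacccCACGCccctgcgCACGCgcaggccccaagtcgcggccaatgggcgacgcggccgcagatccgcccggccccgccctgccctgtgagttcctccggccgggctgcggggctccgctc
PGK1: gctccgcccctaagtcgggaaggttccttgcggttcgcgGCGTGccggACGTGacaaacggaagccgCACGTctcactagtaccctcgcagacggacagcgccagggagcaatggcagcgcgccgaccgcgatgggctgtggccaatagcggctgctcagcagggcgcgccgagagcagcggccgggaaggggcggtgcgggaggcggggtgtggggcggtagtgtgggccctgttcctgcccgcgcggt

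For 36 of the 40 genes a promoter was listed, with 65 start sites in all. ACGTG was present in 25 of these 65 windows (38.5%), beside 18.5% of all 35116 windows, and GCGTG in 36.9% beside 32.2%. Either core stood in 61.5% of the members' windows and in 43.2% of all windows. These are letters in a window, with no measurement of binding in these data.

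Between the labels, the genes were mostly lower on the D3-labelled arrays. CA9, ADM and BNIP3 passed a threshold of more than 2-fold with unadjusted p under 0.05, all of them in the lower direction. These were 3 of 37 tested members, or 8.11%, beside 0.198% of all tested protein-coding genes lower by this rule, and 0 members were higher by it, beside 0.337% of genes. CA9 passed the filter on low signals through the vehicle arrays alone, and among the 36 members above background on all 6 arrays 2 passed, ADM and BNIP3 (5.56%), beside 0.131% of the genes under that filter. Counted over all 63372 tested probes of the array, 0.811% passed in either direction and 0.224% in the lower one. In limma 0 of the 37 members had an adjusted p under 0.05, the lowest being 0.712, as did 0 (0%) of all probes, while 15 members had an unadjusted p under 0.05 in limma and 7 did by an unmoderated test of the same values.

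All 15 members with an unadjusted p under 0.05 in limma were lower on the D3-labelled arrays, a share of 40.5%, beside 2.23% of genes that were lower and 2.62% that were higher at the same p. The 15 include CA9, which entered the test through the vehicle arrays alone. With the filter on all 6 arrays, 14 of 36 members were lower at this p (38.9%), beside 2.55% of genes. Of the 37 members, 31 had a log2 fold change below 0 (83.8%), beside 53.4% of all tested genes. The median log2 fold change of the members was -0.51, beside -0.02 over all tested protein-coding genes. For 16 members, CA9 among them, every D3-labelled array lay below every vehicle-labelled array (43.2%), beside 5.44% of genes. The opposite separation held for 0 members, beside 4.97% of genes. LDHB was among the 16 with a log2 fold change of only -0.07. In these arrays, less RNA of a gene per cell and fewer cells with that RNA cannot be told apart. The number of members with an unadjusted p under 0.05 in limma went from 15 to 6 without vehicle-labelled replicate 2, to 7 without D3-labelled replicate 3, to 9 without D3-labelled replicate 1, and to 8 with the slide as a block. The share of all tested protein-coding genes that were lower at this p, 2.23% with all arrays, was 1.25%, 6.18%, 0.608% and 1.7% in these 4 fits. In either direction, 4091 of the 63372 probes had an unadjusted p under 0.05 in limma with all arrays, and 2498, 9433, 1500 and 2535 in these fits.

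**Figure D1:**
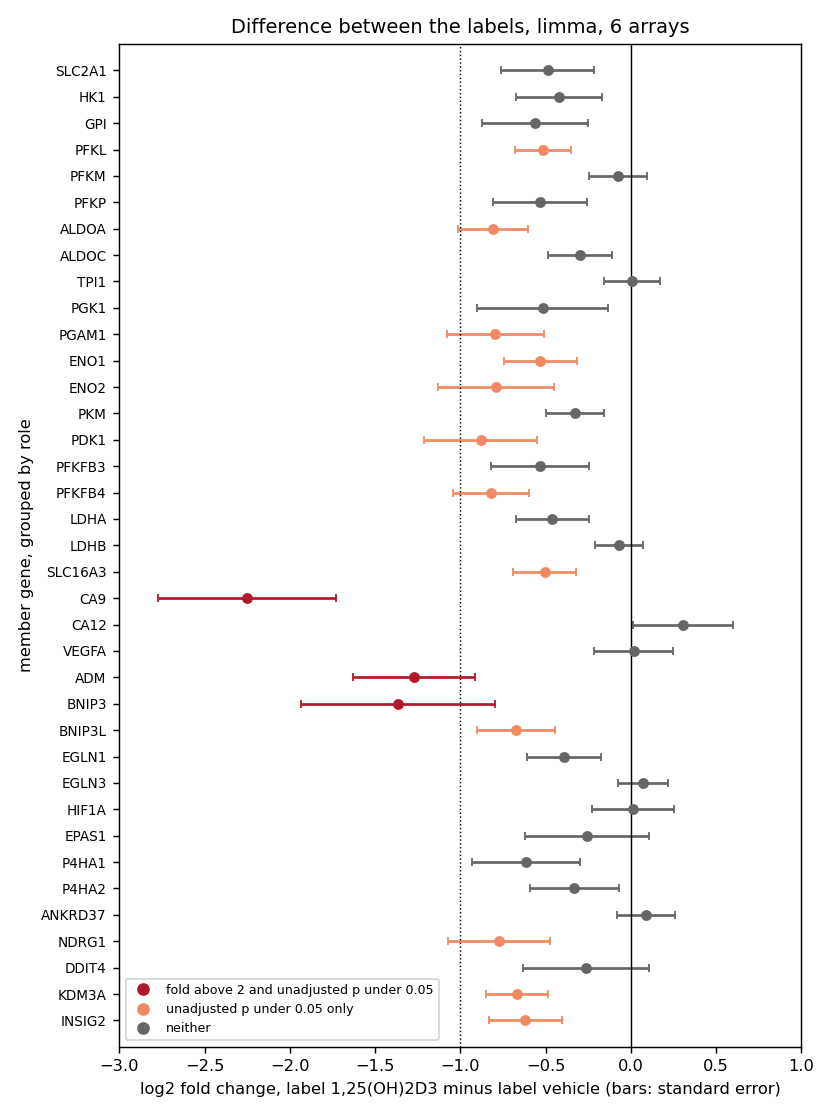
Log2 fold change between the labels for the 37 tested genes, with the standard error from limma (3 arrays against 3) as bars, grouped by role from glucose transport at the top. CA9 lies farthest from 0 at -2.25, followed by BNIP3 at -1.37 and ADM at -1.27, and the dotted line marks a 2-fold lower signal.

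CA9 encodes carbonic anhydrase 9, an enzyme at the outer cell surface that handles the acid of glycolytic cells and is a standard marker of HIF-1 activity. Its signal was -1.61, -1.40 and -2.79 on D3-labelled replicates 1 to 3, and 0.80, -0.77 and 0.93 on vehicle-labelled replicates 1 to 3. The groups did not overlap, and vehicle-labelled replicate 2 lay closest to the other label. The log2 fold change was -2.25 ± 0.52 (SE, n = 3 against 3), a 4.76-fold lower signal (limma, unadjusted p = 0.00274, adjusted p = 0.712). That value includes D3-labelled replicate 3, on which the probe was not well above background, so 2 of the 3 D3-labelled arrays and 3 of 3 vehicle arrays measured it. Over those 5 arrays the log2 fold change was -1.82, and with the other arrays left out in turn it reached -2.79. On slide 2 no value is given, since its only D3-labelled array is the one not above background. CA9 entered the test through the vehicle arrays alone, so its p is no independent support for a lower signal, while the other 36 tested members were above background on all 6 arrays. CA12, a second surface carbonic anhydrase that is also driven by the estrogen receptor, had signals of 2.75, 2.61 and 2.30 against 2.90, 2.01 and 1.82. Its groups overlapped, with a log2 fold change of 0.31 (limma, unadjusted p = 0.33).

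ADM encodes adrenomedullin, a secreted vasodilator peptide. Its signal was 0.20, 0.95 and 0.56 on the D3-labelled arrays and 1.04, 2.20 and 2.27 on the vehicle-labelled arrays. The lowest vehicle array, replicate 1, lay just above the highest array of the other label. The log2 fold change was -1.27 ± 0.36 (SE, n = 3 against 3), a 2.42-fold lower signal (limma, unadjusted p = 0.00765). ADM kept a fold change above 2 with arrays left out in turn, between -1.67 and -1.06 in log2, while with the slide as a block the value was -1.28 (limma, unadjusted p = 0.0619).

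BNIP3, a BH3 protein of the outer mitochondrial membrane that marks mitochondria for removal by autophagy, had signals of 3.40, 2.78 and 2.98 on the D3-labelled arrays and 3.72, 5.90 and 3.63 on the vehicle-labelled arrays. Vehicle-labelled replicate 2 stood far above the others. The log2 fold change was -1.37 ± 0.57 (SE, n = 3 against 3), a 2.58-fold lower signal (limma, unadjusted p = 0.0438). Without vehicle-labelled replicate 2 it was -0.63, and BNIP3 did not pass the threshold without that array or without any 1 of the D3-labelled arrays. Its relative BNIP3L, which serves the same removal of mitochondria, had signals of 3.48, 3.56 and 3.47 against 3.99, 4.68 and 3.86. These groups did not overlap, with a log2 fold change of -0.67 (limma, unadjusted p = 0.02), which was -0.42 without vehicle-labelled replicate 2.

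**Figure D2:**
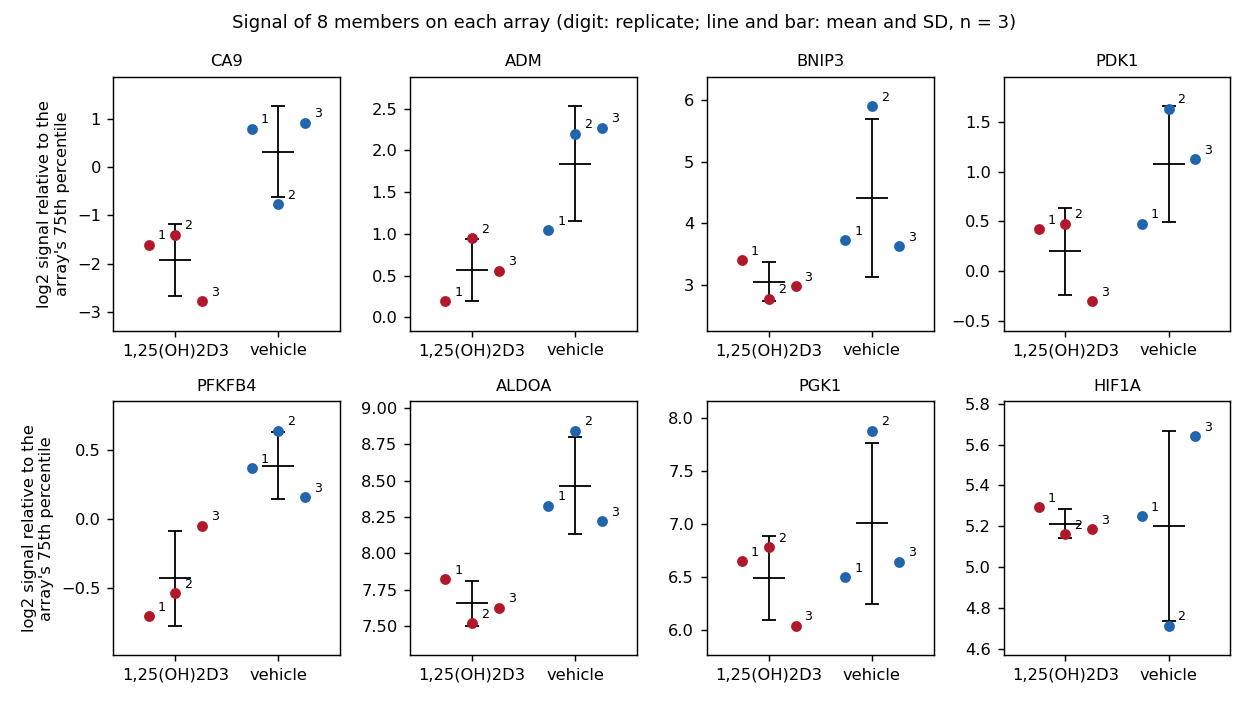
Signal of 8 of the genes on each array, as log2 relative to the array's 75th percentile, with the mean and SD of each label (n = 3) in black and the replicate number beside each point. CA9, ADM, BNIP3, PDK1, PFKFB4 and ALDOA did not overlap between the labels, PGK1 and HIF1A did, and BNIP3 on vehicle replicate 2 was 5.90 where the other arrays lay between 2.78 and 3.72.

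Glucose enters cells through transporters of the SLC2A family. SLC2A1, the main glucose transporter of most tumour cells, had signals of 3.54, 3.29 and 3.22 on the D3-labelled arrays and 3.27, 4.32 and 3.93 on the vehicle-labelled arrays. Vehicle-labelled replicate 1 lay among the other label's arrays, and the log2 fold change was -0.49 ± 0.27 (SE, n = 3 against 3; limma, unadjusted p = 0.11), or -0.25 without vehicle-labelled replicate 2.

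Of the 14 glycolytic enzyme genes listed, 13 were tested, and 12 of these had a log2 fold change below 0, with a median of -0.52. None of the 13 passed the fold threshold, while 5 had an unadjusted p under 0.05 in limma, namely PFKL, ALDOA, PGAM1, ENO1 and ENO2. By the brightest probe, the same 5 genes were those of the 13 whose groups did not overlap, beside 5.44% of genes lower without overlap.

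In the upper steps of the pathway, hexokinase and phosphofructokinase commit glucose to glycolysis and aldolase cleaves the hexose. PFKL, the liver-type phosphofructokinase, read 3.03, 2.998 and 2.997 on the D3-labelled arrays and 3.34, 3.74 and 3.49 on the vehicle-labelled arrays, a log2 fold change of -0.51 ± 0.16 (SE, n = 3 against 3; limma, unadjusted p = 0.0141). ALDOA, aldolase A, read 7.82, 7.52 and 7.63 against 8.33, 8.84 and 8.22, a log2 fold change of -0.81 ± 0.21 (SE; limma, unadjusted p = 0.00486). For both enzymes the SD within each label was smaller than the difference between the label means. HK1, which phosphorylates glucose, read 4.00, 4.23 and 3.67 against 4.09, 4.85 and 4.22. GPI, which turns glucose phosphate into fructose phosphate, read 2.03, 1.89 and 1.56 against 2.28, 3.06 and 1.83. PFKP, the platelet-type phosphofructokinase, read 4.34, 4.91 and 3.99 against 4.63, 4.92 and 5.29. Through these probes the groups of HK1, GPI and PFKP overlapped, with log2 fold changes of -0.42, -0.56 and -0.53. Without vehicle-labelled replicate 2 the values of HK1 and GPI were -0.19 and -0.23, and without D3-labelled replicate 3 that of PFKP was -0.32. Intron probes of GPI and PFKP gave -0.81 and -0.56 without overlap (limma, unadjusted p = 0.00587 and 0.0155). A coding-sequence probe of PFKP and an intron probe of HK1 gave -0.47 and -0.45 with overlap.

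The lower steps of the pathway make ATP and pyruvate. PGK1, phosphoglycerate kinase, read 6.64, 6.77 and 6.04 on the D3-labelled arrays and 6.50, 7.88 and 6.64 on the vehicle-labelled arrays. These signals of its brightest probe gave a log2 fold change of -0.52 (limma, unadjusted p = 0.214), or -0.08 without vehicle-labelled replicate 2. Of its other 2 tested probes, 1 passed the fold threshold with -1.12 and no overlap of the groups (limma, unadjusted p = 0.00236), or -0.93 without that array, and the other gave -0.85 without overlap (limma, unadjusted p = 0.0187), or -0.63. The first of these lay in an intron of the canonical transcript and the second only partly in an exon. Neither matched a protein-coding transcript, while the brightest PGK1 probe lay in the 3′ UTR. PGAM1, phosphoglycerate mutase, read 4.23, 4.53 and 4.17 against 4.60, 5.72 and 5.00, a log2 fold change of -0.79 (limma, unadjusted p = 0.0248). This PGAM1 probe has 3 exact copies in the genome, so signal from related copies could not be separated from PGAM1. The other 2 tested PGAM1 probes gave -0.50 in the 3′ UTR and -0.60 in an intron. Both had overlapping groups (limma, unadjusted p = 0.132 and 0.0526). ENO1, the ubiquitous enolase, read 7.39, 7.33 and 7.20 against 7.67, 8.28 and 7.57, a log2 fold change of -0.53 (limma, unadjusted p = 0.0403). ENO2, the neuronal enolase that hypoxia also induces, read 0.35, -0.07 and -0.07 against 0.40, 1.67 and 0.51, a log2 fold change of -0.79 (limma, unadjusted p = 0.0493). In PGAM1, ENO1 and ENO2 vehicle-labelled replicate 2 was the highest of all 6. Without it their log2 fold changes were -0.49, -0.31 and -0.39 (limma, unadjusted p = 0.0641, 0.133 and 0.113). The remaining glycolytic enzymes PFKM, ALDOC, TPI1 and PKM had log2 fold changes of -0.08, -0.30, 0.00 and -0.33, with overlapping groups, and the TPI1 probe matched a transcript with a retained intron and no protein-coding one.

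The enzymes that set the flow through glycolysis were lower on the D3-labelled arrays in all 3 cases, with a median log2 fold change of -0.82, and none passed the fold threshold. PDK1, the kinase that shuts pyruvate dehydrogenase and so keeps pyruvate out of the mitochondria, read 0.42, 0.48 and -0.31 on the D3-labelled arrays and 0.48, 1.64 and 1.12 on the vehicle-labelled arrays. The log2 fold change was -0.88 ± 0.33 (SE, n = 3 against 3; limma, unadjusted p = 0.0304), with replicate 1 of vehicle level with replicate 2 of the other label. PFKFB4, which makes and removes the fructose 2,6-bisphosphate that drives phosphofructokinase, read -0.71, -0.54 and -0.05 against 0.37, 0.64 and 0.16, a log2 fold change of -0.82 ± 0.22 (SE; limma, unadjusted p = 0.00682). Its other 3 tested probes gave 0.15, -0.11 and -0.54 (limma, unadjusted p = 0.533, 0.808 and 0.0305), and the mean of its probes gave -0.33. Of these 3, the first 2 lay outside the canonical transcript and the last in an intron. None of them matched a protein-coding transcript, unlike the brightest probe of PFKFB4, in the 3′ UTR. PFKFB3, its relative with a strong kinase side, read 1.69, 1.91 and 1.55 against 1.61, 2.44 and 2.70, with overlapping groups and a log2 fold change of -0.53 (limma, unadjusted p = 0.1). With the slide as a block, where the estimate comes from slide 2 alone, PDK1 was -1.38 and passed the fold threshold, and PFKFB4 was -0.44.

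In lactate handling, LDHA, the subunit that favours lactate formation, read 9.47, 9.32 and 8.89 on the D3-labelled arrays and 9.64, 9.96 and 9.46 on the vehicle-labelled arrays. The groups met at 9.47 and 9.46, and the log2 fold change was -0.46 ± 0.22 (SE, n = 3 against 3; limma, unadjusted p = 0.0664). SLC16A3, the transporter MCT4 that exports lactate, read 2.38, 2.73 and 2.74 against 2.90, 3.26 and 3.22, without overlap, a log2 fold change of -0.51 (limma, unadjusted p = 0.0261). LDHB, the subunit that favours the return to pyruvate, had a log2 fold change of -0.07 (limma, unadjusted p = 0.628). This LDHB probe matched a retained-intron transcript, and its groups did not overlap. The brightest LDHB probe that matched a protein-coding transcript gave 0.01 with overlapping groups.

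**Figure D3:**
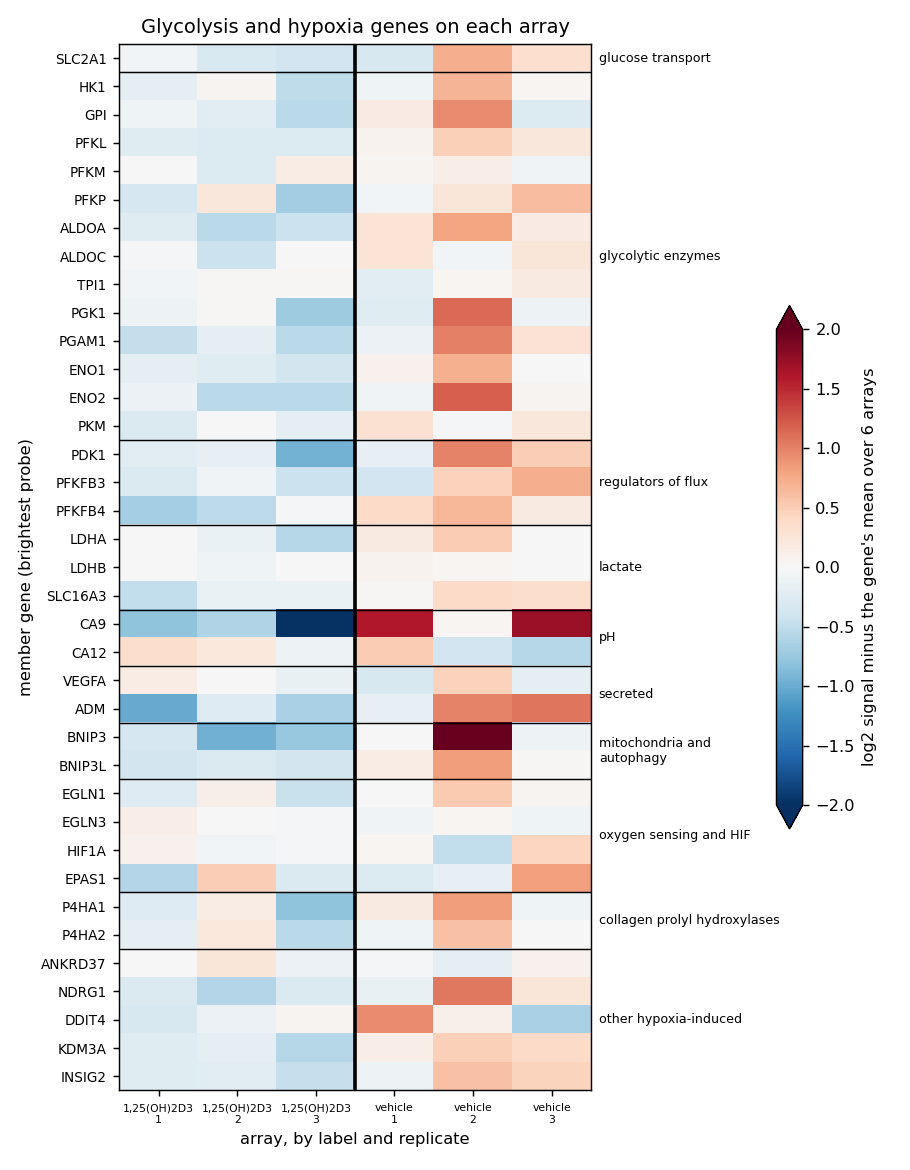
Heat map of the 37 tested genes (rows, grouped by role) on the 6 arrays (columns, labels 1,25(OH)2D3 left and vehicle right), coloured by log2 signal minus the gene's mean over the 6 arrays, with colours saturating at 2 in either direction. Vehicle-labelled replicate 2 is the reddest column, and of the D3-labelled arrays replicate 3 is the bluest.

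None of the 4 genes of oxygen sensing had an unadjusted p under 0.05 in limma. HIF1A, which encodes HIF-1α, read 5.29, 5.16 and 5.19 on the D3-labelled arrays and 5.25, 4.71 and 5.64 on the vehicle-labelled arrays, a log2 fold change of 0.01 ± 0.24 (SE, n = 3 against 3; limma, unadjusted p = 0.964). On vehicle-labelled replicate 2 HIF1A had its lowest signal of the 6. EPAS1, which encodes HIF-2α, read 1.102, 2.17 and 1.39 against 1.41, 1.53 and 2.50, a log2 fold change of -0.26 (limma, unadjusted p = 0.502). EGLN1, the main oxygen-sensing prolyl hydroxylase, had a log2 fold change of -0.39 (limma, unadjusted p = 0.111), and EGLN3, a hydroxylase that HIF induces, read -0.24, -0.37 and -0.38 against -0.43, -0.32 and -0.45, with overlapping groups and a log2 fold change of 0.07. The brightest EGLN3 probe lies outside the gene's canonical transcript, so that value does not read the canonical mRNA.

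Among other genes that hypoxia induces, NDRG1, a differentiation-linked stress gene, read 3.99, 3.69 and 4.00 on the D3-labelled arrays and 4.14, 5.33 and 4.53 on the vehicle-labelled arrays, a log2 fold change of -0.77 (limma, unadjusted p = 0.0334), or -0.44 without vehicle-labelled replicate 2. KDM3A, a histone H3 lysine demethylase, read -0.74, -0.68 and -1.07 against -0.36, -0.02 and -0.11, a log2 fold change of -0.67 (limma, unadjusted p = 0.00668), through a probe in an intron of the canonical transcript. INSIG2, which retains the sterol sensor complex in the endoplasmic reticulum, read 0.34, 0.37 and 0.12 against 0.49, 1.17 and 1.04, a log2 fold change of -0.62 (limma, unadjusted p = 0.0206). None of these 3 genes overlapped between the labels. DDIT4, the mTORC1 inhibitor REDD1, read 3.74, 3.94 and 4.12 against 5.01, 4.16 and 3.41. Its vehicle arrays lay on both sides of the others, with a log2 fold change of -0.26.

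The collagen prolyl hydroxylases P4HA1 and P4HA2, which make collagen chains fit for folding, overlapped between the labels. P4HA1 read 0.24, 0.65 and -0.31 on the D3-labelled arrays and 0.68, 1.34 and 0.41 on the vehicle-labelled arrays, a log2 fold change of -0.62 (limma, unadjusted p = 0.0874), which was -1.12 and past the threshold with the slide as a block. P4HA2 read 2.84, 3.24 and 2.49 against 2.93, 3.61 and 3.02, a log2 fold change of -0.33. Without vehicle-labelled replicate 2 the values were -0.35 and -0.12.

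Values of some members differed between probes, as for PGK1 and PFKFB4 above. VEGFA, the angiogenic growth factor, read 4.86, 4.71 and 4.56 on the D3-labelled arrays and 4.38, 5.17 and 4.53 on the vehicle-labelled arrays through its brightest probe, which matched a retained-intron transcript and gave a log2 fold change of 0.02. The brightest VEGFA probe that matched a protein-coding transcript gave -0.81 (limma, unadjusted p = 0.051). ANKRD37, an ankyrin repeat gene induced through HIF-1, read 0.80, 1.04 and 0.68 against 0.76, 0.61 and 0.89 through its brightest probe, with a log2 fold change of 0.09, and -0.54 through the brightest probe that matched a protein-coding transcript. Of the 38 chosen probes 7 matched no protein-coding transcript. Over all 83 tested probes of the members, 69 were lower on the D3-labelled arrays. Of the 25 genes with more than 1 tested probe, 18 had all probes lower, 2 had all higher and 5 had probes of both signs. In 5 of the 25 the probes differed from each other by at least 0.5 in log2 fold change.

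The mean of the 36 members above background on all 6 arrays, each centred on its own mean over the arrays, was -0.21, -0.14 and -0.35 on the D3-labelled arrays and 0.03, 0.51 and 0.15 on the vehicle-labelled arrays. The 3 values of each label did not overlap. The label means were -0.23 ± 0.11 (SD, n = 3) and 0.23 ± 0.25 (SD, n = 3), a difference of -0.46, beside -0.02 for the same mean over 14518 protein-coding genes. No test was made of this mean, since the genes were listed with results of these arrays known. The difference was -0.32 without vehicle-labelled replicate 2. On slide 2 alone, a choice made after seeing the data, it was -0.58. Of the D3-labelled arrays that slide holds only replicate 3, which had the lowest mean of the 6. The 20 genes of glucose uptake, glycolysis and lactate differed by -0.50 and the other 16 genes by -0.42.

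Vehicle-labelled replicate 2 gave the highest signal of the 6 for 22 of these 36 genes, beside 21.7% of all protein-coding genes above background on all arrays. D3-labelled replicate 3 gave the lowest for 18 of the 36, beside 22.2% of all genes. Both arrays lie on slide 2 and both had a low CYP24A1 signal. Beside the CYP24A1 signals given above, the mean of the members was -0.21 and -0.35 on the D3-labelled arrays with low CYP24A1, 0.51 on the vehicle array with low CYP24A1, -0.14 on the D3-labelled array with high CYP24A1, and 0.03 and 0.15 on the vehicle arrays with high CYP24A1. The lowest and the highest mean thus both stood on arrays with low CYP24A1. Arrays were not regrouped by this signal, and no test was made of it.

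**Figure D4:**
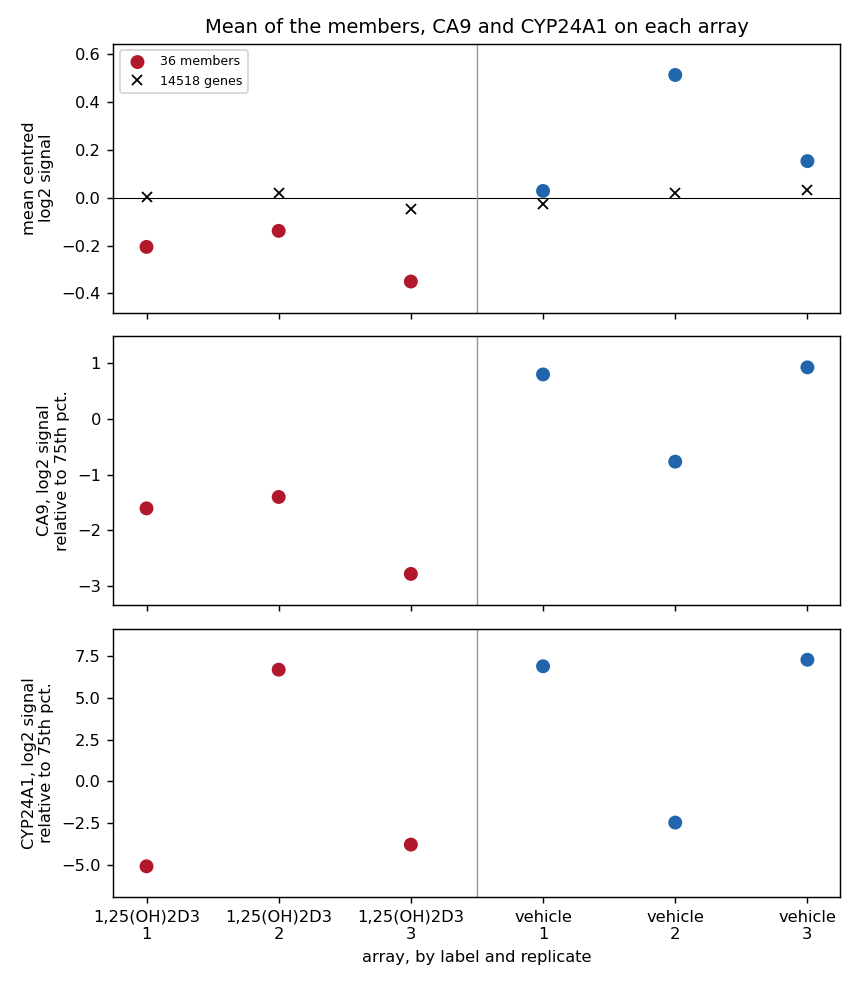
Mean centred log2 signal of the 36 members (points) and of 14518 protein-coding genes (crosses), CA9 signal, and CYP24A1 signal on the 6 arrays, with D3-labelled arrays in red and vehicle in blue. The mean of the members is below 0 on the 3 D3-labelled arrays and above 0 on the 3 labelled vehicle, while CYP24A1 is high on 1 array of the first label and on 2 of the second.

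A further 68 genes of the same pathways were listed with the members, and 57 of them were tested. Of these, 39 had a log2 fold change below 0 and 18 above, none passed the fold threshold, and 5 had an unadjusted p under 0.05 in limma, 3 lower and 2 higher, beside 2.23% of genes that were lower and 2.62% that were higher. The 24 tested hypoxia-induced genes had a median log2 fold change of -0.31, with 21 below 0. The 26 tested genes of glycolysis and its branches had a median of -0.09 and the 7 tested genes of oxygen sensing 0.03. As none passed the threshold, PDP1 is named for the size of its difference. PDP1, the phosphatase that reopens pyruvate dehydrogenase against PDK1, read -1.01, -1.35 and -0.77 on the D3-labelled arrays and -2.08, -2.36 and -1.17 on the vehicle-labelled ones, with overlapping groups and a log2 fold change of 0.83 (limma, unadjusted p = 0.032).

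**Figure D5:**
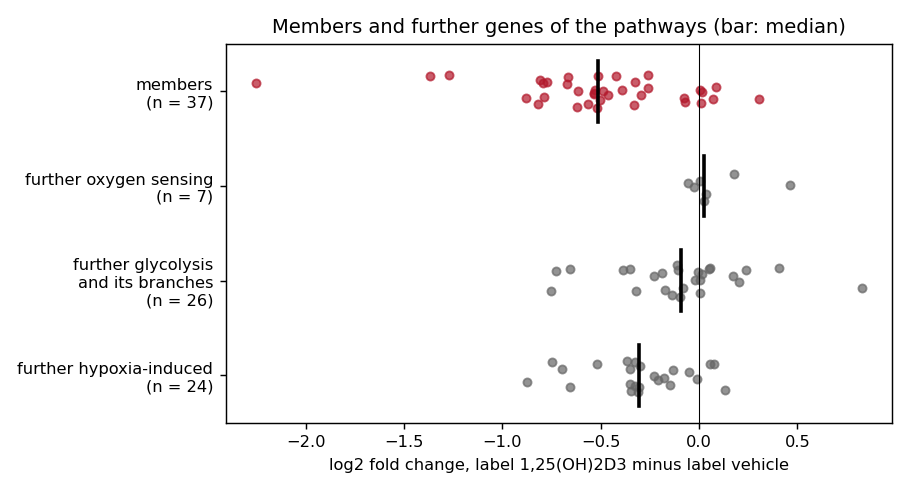
Log2 fold change between the labels of the 37 tested members (red) and of 57 further tested genes in 3 lists (grey), with 1 point a gene, vertical scatter added for legibility and the median of each list as a black bar. The medians are -0.51 for the members, 0.03 for oxygen sensing, -0.09 for glycolysis and its branches and -0.31 for hypoxia-induced genes.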

How the data were processed

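The authors scanned 6 single-colour arrays (3 per label) with Agilent Feature Extraction 10.7.1.1, per the file headers and the submitters' processing notes, and deposited the intensity of each spot, background-corrected within the array, and a table of log2 values per probe, whose sorted columns differ by at most 0.000913 and were thus quantile normalized. Of 175812 non-control spots per array, 1837 to 2471 outlier spots were left out, and 0 were saturated. From these intensities, spots of a probe were averaged, divided by the 75th percentile of the array and taken to log2. Probes well above background on 3 of 3 arrays of either label were tested with limma 3.58.1 in R 4.3.3, without covariates and with Benjamini-Hochberg adjustment over all 63372 tested probes. The thresholds were a fold above 2 with a p under 0.05, taken here as unadjusted since the paper's results give no adjustment, or an adjusted p under 0.05. The paper's array methods instead ask for an absolute log2 fold change above 2 and an FDR under 0.05, which 0 probes met. The fit was tested on simulated data. Precision is limited by the number of arrays.

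Of 125601 probes, 72.1% matched a GENCODE 44 transcript without mismatch. Members named with their value on every array are those with a range of at least 1, an absolute log2 fold change of at least 0.5 or an unadjusted p under 0.05, and 13 chosen by name, and of the further genes those with the largest differences, some of which are not reported here. Members, lists and rules were chosen with earlier results of these data known. Alternatives were quantile normalization, normexp with an offset of 50, the authors' log2 values, 2 other filters, replicate or slide as a block, a t-test per probe, other probes per gene, and each array left out in turn.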

Additional observations from a re-analysis of the deposited data

How the results depend on the processing

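Members passing the fold and p threshold numbered 3, and 2 to 4 under the alternatives, except with arrays left out in turn, where they numbered 2 to 7. Without vehicle-labelled replicate 1 the 7 were CA9, ADM, BNIP3, PDK1, PGAM1, ENO2 and NDRG1. ADM passed with each array left out, and BNIP3 did not without D3-labelled replicates 1, 2 or 3 or vehicle replicate 2. CA9 also passed in each of these fits, but it entered them through the vehicle arrays alone, so this is no independent support. With the filter on all 6 arrays CA9 was not tested. With the slide as a block CA9 (not above background on the only D3-labelled array of slide 2), PDK1 and P4HA1 passed. No member passed the adjusted threshold under any of them. The mean of the members differed between the labels by -0.56 to -0.32 with arrays left out. The count over all probes, 514, was 162 with a filter on all 6 arrays, 2006 without one, 33 with normexp, 791 with the slide as a block, 162 with a t-test, and 318 (without D3-labelled replicate 1) to 1230 (without vehicle-labelled replicate 1) with arrays left out. Of these counts 142 of 514 were lower, against 337 of 791 with the slide as a block and 19 of 33 with normexp. The cause was not tested.

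The replicate numbers did not pair the arrays (correlations of deviations 0.124, 0.094 and -0.035, and 2 of 6 arrays correlated best with their own number). With the replicate block 3 members and 625 of all probes passed.

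Of 459 single values recomputed, 425 kept their direction and side of the threshold and 17 changed sign. With arrays left out in turn, the log2 fold change of VEGFA ranged from -0.14 to 0.25, of ANKRD37 from -0.0098 to 0.17, of HIF1A from -0.23 to 0.23, of EPAS1 from -0.56 to 0.085 and of DDIT4 from -0.65 to 0.15. With the slide as a block VEGFA was -0.13, ANKRD37 -0.071 and HIF1A -0.016, and with normexp VEGFA was -0.011 and EGLN3 -0.030. As the mean of the gene's probes VEGFA was -0.36, ANKRD37 -0.22 and PFKFB4 -0.33, and with the protein-coding probe VEGFA was -0.81 and ANKRD37 -0.54. The choice of the protein-coding probe and of slide 2 alone was made after seeing the data.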

Other observations

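Among the 24 tested further hypoxia-induced genes, 3 had an unadjusted p under 0.05 in limma, all lower on the D3-labelled arrays and without overlap between the labels, beside 2.23% of all tested protein-coding genes lower at this p and 5.44% lower without overlap. HILPDA, a lipid droplet protein, read -1.45, -1.28 and -1.55 on those arrays and -1.19, -0.23 and -0.89 on the vehicle-labelled arrays, a log2 fold change of -0.66 (limma, unadjusted p = 0.0331). PLOD1, a lysyl hydroxylase of collagen, read 3.89, 4.14 and 3.55 against 4.62, 4.91 and 4.14, a log2 fold change of -0.70 (limma, unadjusted p = 0.0232). The groups of PLOD1 all but met, at 4.1379 and 4.1387. WSB1, part of a ubiquitin ligase, read 1.36, 1.31 and 1.46 against 1.95, 2.08 and 1.68, a log2 fold change of -0.52 (limma, unadjusted p = 0.0149). In oxygen sensing, ARNT, the partner of both HIF-α proteins, had a log2 fold change of 0.46 (limma, unadjusted p = 0.0481), the opposite direction. ARNT did not overlap between the labels either, beside 4.97% of genes higher without overlap. These 4 genes were named after their values were seen.

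FAM162A, a mitochondrial protein induced by HIF-1, read 1.498, 1.40 and 0.82 on the D3-labelled arrays and 1.37, 3.11 and 1.48 on the vehicle-labelled arrays, and was named after its values were seen. As with BNIP3 and the brightest PGK1 probe, vehicle-labelled replicate 2 stood above the others.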
